A study of Mus musculus with 6 samples.

Results

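Genes that build, drive or answer to the ubiquitin ligases of the cell cycle were followed in primary mouse hepatocytes, in undamaged liver and 48 h after partial hepatectomy (PHx), in which a surgeon cuts away the larger part of the liver. The 9 genes (Fzr1, Fbxo5, Ube2c, Ube2s, Pttg1, Espl1, Skp2, Cks1b and Cks2) were chosen by gene name, and all 9 were found by versioned identifier among the 55450 annotated genes in the count tables. At 48 h, 7 of the 9 were higher (21.4% of all genes tested), by 2.38-fold (Cks2) to 60.5-fold (Ube2c). The gene of separase (Espl1) rose 44.9-fold, whereas the gene of its inhibitor securin (Pttg1) was 24.3% below its level in undamaged liver by the fitted fold change of 0.757, a call that held in 8 of the 15 alternative settings run, and the level of the activator gene Fzr1 overlapped between the time points.

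The bulk RNA-Seq libraries came from 3 hepatocyte preparations at 0 h and 3 at 48 h. All mice were male, C57BL/6 and 10 to 12 weeks old by the labels (C57BL/6J and slightly younger in the study's methods), on a normal diet, with no transgene or drug named for either group, and the hepatocytes were freed by collagenase perfusion. The 0 h preparations came from undamaged livers and not from sham-operated mice, so surgery and regeneration cannot be told apart. Gene counts summed to 31419443 to 36346220 per library at 0 h and 31684152 to 33093006 at 48 h, so that 3 counts, taken as the floor, correspond to 0.0825 to 0.0955 CPM (the count of a gene scaled to a fixed library total) before TMM scaling. That floor covers counting error only, since no molecular identifiers are described. Levels are given as CPM after TMM normalization, which scales each library to a trimmed mean of gene ratios. With library size alone the log2 fold change of the median gene would lie 0.20 higher, and the share of higher genes among all calls would be 71.6% instead of 52.5%. In the 8 hepatocyte marker genes summed CPM was 82970 to 100100 at 0 h and 54040 to 70170 at 48 h, with none of the 8 at 0. Of the 8, 3 were called lower (Alb, Apoa1 and Ttr), 1 higher (Fgb) and 4 neither way, beside 19.3% lower and 21.4% higher among all genes tested, with a median log2 fold change of -0.11.

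Ubiquitin ligases of the APC/C and SCF types pace the cell cycle. The anaphase-promoting complex (APC/C) is switched on by Cdc20 in mitosis and by Fzr1 (also called Cdh1) at mitotic exit and in G1, receives ubiquitin through the E2 enzymes Ube2c, which starts chains, and Ube2s, which extends them, and is held back by Fbxo5 (Emi1). At anaphase it destroys securin, which frees separase to cut cohesin and let sister chromatids part. SCF ligases use exchangeable F-box proteins, among them Skp2, which with the cofactor Cks1b directs the inhibitor p27 (Cdkn1b) to destruction, and Cks2 is the close paralog of Cks1b and binds cyclin-dependent kinases. In adult liver few hepatocytes divide until tissue is lost, and many then enter S phase and mitosis.

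The promoter windows of the 9 genes were searched for motifs, and any part of these in the changes was not tested. The windows are those of RefSeq on GRCm38.p6, from 250 bases before to 50 bases after the annotated start, and were found for all 9 genes, with a pair of start sites for Skp2. Capitals mark letters of promoter motifs of cell cycle genes, searched on both strands: TTTGAA, a core sequence of the cell cycle homology region (CHR), and CCAAT. Other spellings of the CHR were not searched. The windows of Ube2c and Espl1, the largest increases, are printed first, followed by that of Pttg1, the gene that fell, and that of Fzr1. They lie at chr2:164769679-164769978 (plus strand), chr15:102296043-102296342 (plus strand), chr11:43425932-43426231 (minus strand) and chr10:81378321-81378620 (minus strand), and read 5′ to 3′ along the gene.
Ube2c: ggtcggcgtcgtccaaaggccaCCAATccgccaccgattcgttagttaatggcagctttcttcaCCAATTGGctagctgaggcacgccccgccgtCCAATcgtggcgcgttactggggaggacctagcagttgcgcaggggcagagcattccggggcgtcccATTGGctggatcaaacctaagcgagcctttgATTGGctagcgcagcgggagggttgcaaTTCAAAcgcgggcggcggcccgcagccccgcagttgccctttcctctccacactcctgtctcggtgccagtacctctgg
Espl1: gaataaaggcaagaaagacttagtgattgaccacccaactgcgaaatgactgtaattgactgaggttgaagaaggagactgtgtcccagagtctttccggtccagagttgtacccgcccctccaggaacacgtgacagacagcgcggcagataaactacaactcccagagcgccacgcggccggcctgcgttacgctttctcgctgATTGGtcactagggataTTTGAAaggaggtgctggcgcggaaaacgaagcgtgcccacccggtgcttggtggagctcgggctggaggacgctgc
Pttg1: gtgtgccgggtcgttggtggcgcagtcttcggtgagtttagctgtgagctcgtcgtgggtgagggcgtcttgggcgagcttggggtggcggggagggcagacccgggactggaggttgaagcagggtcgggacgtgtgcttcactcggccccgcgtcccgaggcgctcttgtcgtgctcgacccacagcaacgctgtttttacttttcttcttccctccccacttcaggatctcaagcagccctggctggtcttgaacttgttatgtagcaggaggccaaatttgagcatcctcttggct
Fzr1: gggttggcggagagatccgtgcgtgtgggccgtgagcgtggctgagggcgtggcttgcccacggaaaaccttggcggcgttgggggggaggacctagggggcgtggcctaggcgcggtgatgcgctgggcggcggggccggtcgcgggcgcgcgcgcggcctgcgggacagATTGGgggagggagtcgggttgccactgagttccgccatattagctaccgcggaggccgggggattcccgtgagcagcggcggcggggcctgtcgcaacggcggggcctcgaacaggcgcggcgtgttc

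TTTGAA stood in a window of 5 of the 9 genes (Fbxo5, Ube2c, Espl1, Skp2 and Cks1b), against 17.9% of all 32851 windows of the same length. In Ube2c it began 29 bases before the start on the reverse strand, in Espl1 27 bases before it on the forward strand, and in Cks1b 77 and 17 bases before it. CCAAT stood in a window of 7 of the 9, against 37.4% of all windows, with 6 copies in Ube2c, 4 each in Cks1b and Cks2, 3 in Fbxo5 and 1 each in Espl1, Skp2 and Fzr1. In Ube2c a forward and a reverse copy of CCAAT overlap by 2 bases. Neither the Pttg1 nor the Ube2s window holds TTTGAA or CCAAT, although Ube2s rose. In both genes the window lies wholly inside the annotated gene, whose upstream end is at 43426251 for Pttg1 and 4812590 for Ube2s. The letters before that outermost start were therefore not searched. The Ube2s window holds TTCGAA, a near match to TTTGAA that the search did not cover. E2F-type motifs were in none of the windows of the 9 genes and in 9.57% of all windows. The E2F-type letters searched were TTCCCGC as well as TTGGCGC, together with TTGCCGC as well as TTCGCGC. In Skp2 both motifs lie in the upstream of its windows and none in the downstream one, so the match depends on which start is used. These matches describe letters only, and binding was not measured.

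Across all genes, 17037 had at least 10 counts in at least 3 libraries and were tested with edgeR's quasi-likelihood test, with p-values adjusted over all of them by the Benjamini-Hochberg method and a threshold of 0.05. All 9 genes passed the filter on low counts. Of the genes tested, 21.4% were called higher and 19.3% lower at 48 h, whereas 7 of the 9 were called higher and 1 lower. The lowest 48 h library exceeded the highest 0 h library in the 7 higher genes (27.8% of all genes tested did so), and in Pttg1 the order was the opposite, without overlap (25.0% of all genes tested). The median log2 fold change of the 9 was 2.06, and that of all genes tested was -0.00325. In these bulk libraries a change in the number of cells that express a gene and a change in RNA per cell cannot be told apart.

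**Figure D1:**
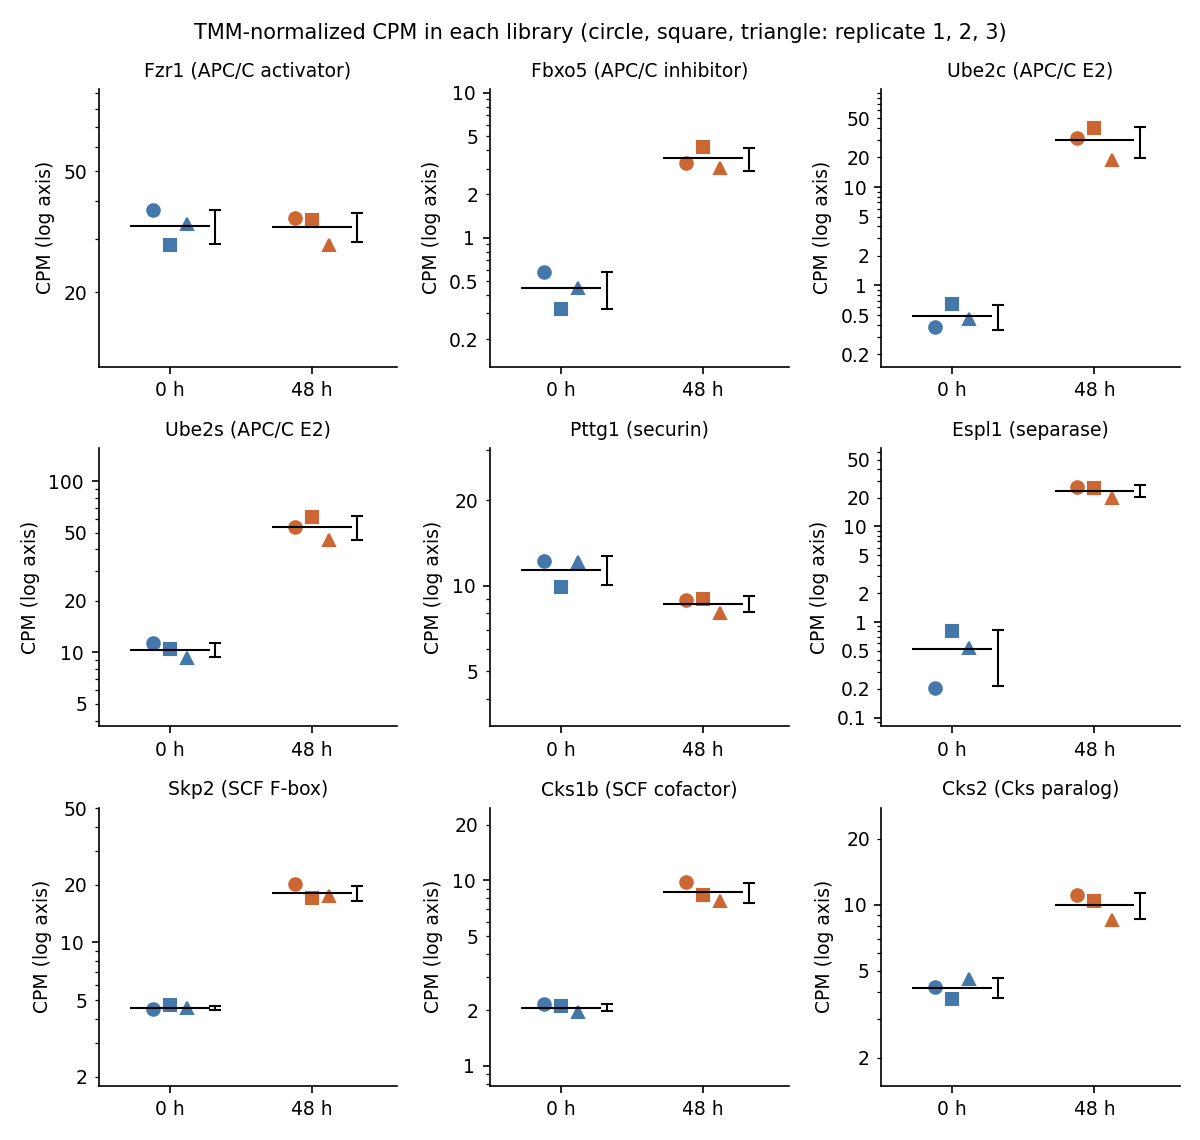
Level of each of the 9 genes in each library, as TMM-normalized CPM on a log axis with its own range per panel, at 0 h (blue) and 48 h after PHx (orange); horizontal lines are means and bars the SD over 3 libraries. The libraries of the time points stand apart in 8 panels, with Pttg1 the panel in which 48 h is below 0 h (called in 8 of 15 alternative settings, and not under library size scaling), and they overlap for Fzr1.

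Among the regulators of the APC/C, the activator gene Fzr1 (ENSMUSG00000020235.16; chromosome 10, 81366222 to 81378516, GRCm38, minus strand) stood at 37.2, 28.55 and 33.5 CPM in replicates 1, 2 and 3 at 0 h and at 35.1, 34.5 and 28.6 CPM at 48 h. The ranges overlap almost entirely. Its mean was 33.1 ± 4.33 (SD, n = 3) CPM at 0 h and 32.75 ± 3.57 (SD, n = 3) at 48 h, and the fitted log2 fold change of -0.01 with its standard error (SE) of 0.128 had a 95% interval of -0.30 to 0.27 and an adjusted p of 0.939 in edgeR's test. Changes beyond 1.205-fold up or to below 0.813 of the 0 h level lie outside that interval. The sign of this small difference turned with library size only, to 0.19 on the log2 scale, and without 0 h replicate 1 or 48 h replicate 3.

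The inhibitor gene Fbxo5 (ENSMUSG00000019773.7; chromosome 10, 5799160 to 5805600, minus strand) was rare in undamaged liver, with 17, 10 and 15 counts, or 0.579, 0.322 and 0.452 CPM. At 48 h it reached 3.30, 4.25 and 3.03 CPM, with every library above every 0 h library. Its log2 fold change was 2.96 (SE 0.280, adjusted p = 2.15e-05 in edgeR's test), or 7.79-fold with a 95% interval of 5.06 to 12.0. It was the scarcest of the 9 genes at 48 h, both in CPM and per kilobase of transcript.

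The chain-starting E2 gene Ube2c (ENSMUSG00000001403.13; chromosome 2, 164769898 to 164778822, plus strand) had 11, 20 and 15 counts at 0 h, or 0.374, 0.645 and 0.452 CPM. At 48 h it stood at 31.3, 39.6 and 18.9 CPM. Both time points varied widely, with an SD of 28.4% and 34.75% of the mean, but the lowest 48 h library was far above the highest 0 h library. The log2 fold change was 5.92 (SE 0.328, adjusted p = 4.26e-07 from edgeR), the largest of the 9 and in place 71 of the 17037 genes tested. Exons of Tnnc2, a muscle troponin gene on the other strand, cover 22.8% of the exon bases of Ube2c, but Tnnc2 itself had at most 1 count in any library.

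The chain-extending E2 gene Ube2s (ENSMUSG00000060860.8; chromosome 7, 4794546 to 4812590, minus strand) was already present in undamaged liver at 11.3, 10.5 and 9.28 CPM. It rose to 54.2, 62.1 and 45.4 CPM, again with no overlap. Exons of the ribosomal protein gene Rpl28, on the other strand, cover 3.56% of its exon bases, and Rpl28 had 2032 to 5295 counts per library. The log2 fold change was 2.38 (SE 0.141, adjusted p = 6.81e-07 from edgeR), or 5.19-fold. Within each library the ratio of Ube2s to Ube2c per kilobase of transcript was 22.7, 12.5 and 15.5 at 0 h and 1.35, 1.225 and 1.88 at 48 h, a difference of -3.49 on the log2 scale (two-sided exact permutation test, p = 0.1, below which a design with 3 libraries per time point cannot go, or 0.12 adjusted over 6 ratios). The difference between the time points does not depend on the transcript lengths, but the order of the E2 genes at 48 h does. With merged exon lengths Ube2s stood at 2.02 and Ube2c at 0.189 CPM per kilobase at 0 h, and at 10.5 and 11.5 at 48 h.

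The genes of separase and securin did not move together. Espl1, the separase gene (ENSMUSG00000058290.4; chromosome 15, 102296266 to 102324357, plus strand), had 6, 25 and 18 counts at 0 h, or 0.204, 0.806 and 0.542 CPM, an SD of 58.3% of the mean. At 48 h it stood at 26.1, 24.97 and 19.7 CPM. Its log2 fold change was 5.49 (SE 0.297, adjusted p = 3.61e-07 from edgeR), or 44.9-fold with a 95% interval of 28.45 to 70.9, and it took place 112 of the genes tested.

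Pttg1, the securin gene (ENSMUSG00000020415.16; chromosome 11, 43420250 to 43426251, minus strand), stood at 12.2, 9.89 and 12.1 CPM in undamaged liver and at 8.94, 8.98 and 7.996 CPM at 48 h. The 3 libraries at 48 h were all below the lowest at 0 h, by a margin of less than 1 CPM. The log2 fold change was -0.40 (SE 0.138, 95% interval -0.71 to -0.10, adjusted p = 0.0392 from edgeR), so it fell by 0.40 on the log2 scale. The call held in 8 of 15 alternative settings. Among the 7 that lost it were library size only (log2 fold change -0.20, adjusted p = 0.267) and the 5 fits that left out a library other than 0 h replicate 2 (adjusted p = 0.0605 to 0.118). In those 5 fits the log2 fold change was -0.44 to -0.36, and the sign stayed negative in every alternative run. A rise of Pttg1 of the size seen in the other 7 genes lies far outside its interval.

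The ratio of Pttg1 to Espl1 per kilobase of transcript, which does not depend on normalization, was 387, 84.7 and 153 in the 3 libraries at 0 h. At 48 h it was 2.405, 2.53 and 2.85. The libraries of undamaged liver, with 6 to 25 counts of Espl1, spread over several fold, whereas those at 48 h lay close together. The difference of -6.05 on the log2 scale corresponds to a ratio 66.2-fold lower at 48 h (exact permutation test, two-sided, p = 0.1, again the lowest possible, or 0.12 adjusted over 6 ratios), and securin transcripts per kilobase still outnumbered those of separase in each library. The log2 difference was -5.46 without 0 h replicate 1 and lay between -6.56 and -5.46 over the fits that left out 1 library.

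In the SCF arm, the F-box gene Skp2 (ENSMUSG00000054115.11; chromosome 15, 9111985 to 9155425, minus strand) stood at 4.49, 4.705 and 4.55 CPM at 0 h and at 20.01, 17.0 and 17.4 CPM at 48 h. The 0 h libraries differed little, with an SD of 2.40% of the mean. The log2 fold change was 1.98 (SE 0.131, adjusted p = 1.50e-06 from edgeR), or 3.95-fold.

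Its cofactor gene Cks1b (ENSMUSG00000028044.6; chromosome 3, 89415472 to 89418383, minus strand) was at 2.145, 2.095 and 1.96 CPM at 0 h and at 9.83, 8.33 and 7.74 CPM at 48 h. The log2 fold change of 2.06 (SE 0.1695, adjusted p = 7.77e-06 from edgeR) was close to that of Skp2. The ratio of Cks1b to Skp2 per kilobase was 1.76, 1.64 and 1.59 at 0 h and 1.805, 1.805 and 1.64 at 48 h. These ranges overlap, and the difference was 0.07 on the log2 scale (two-sided exact permutation p = 0.3, in a design where no ratio can go below 0.1). Of the 6 ratios computed, it was the only one whose time points overlapped. The levels of this ratio depend on the lengths used, and with merged exons Cks1b stood at 1.83 and Skp2 at 0.582 CPM per kilobase at 0 h, and at 7.67 and 2.30 at 48 h.

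Cks2 (ENSMUSG00000062248.5; chromosome 13, 51645232 to 51650660, plus strand) stood at 4.22, 3.74 and 4.61 CPM at 0 h and at 11.1, 10.4 and 8.51 CPM at 48 h. It had the smallest increase of the 7, a log2 fold change of 1.25 (SE 0.162, adjusted p = 0.000174 from edgeR). The ratio of Cks2 to Cks1b per kilobase therefore went from 2.41, 2.18 and 2.88 to 1.38, 1.53 and 1.35, a difference of -0.80 on the log2 scale with no overlap (two-sided exact permutation p = 0.1, 0.12 adjusted over 6 ratios). An annotated processed pseudogene, Gm15452, is identical to Cks2 over 240 bases, and reads that lie wholly inside that stretch cannot be placed uniquely. The 5 pseudogenes that match Cks2 at 90% identity or more over at least 200 bases had at most 2 counts each in any library.

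**Figure D2:**
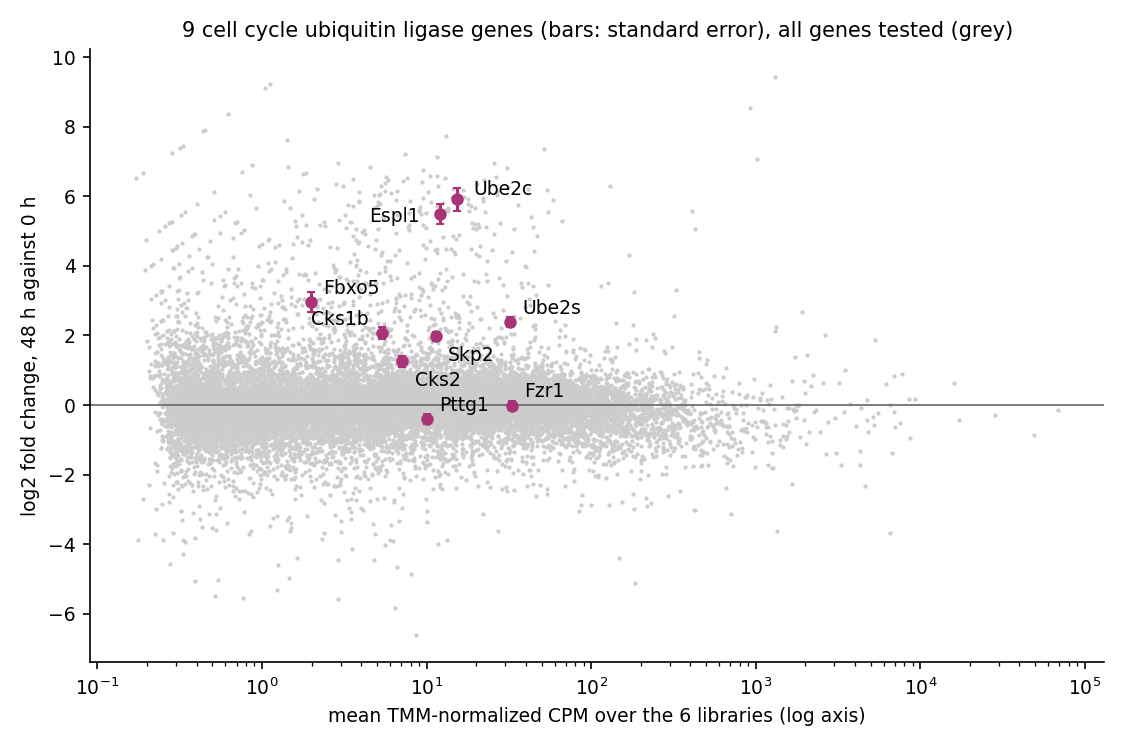
Log2 fold change at 48 h against 0 h plotted against mean TMM-normalized CPM over the 6 libraries (log axis) for the 17037 genes tested (grey) and the 9 genes described (purple, with standard errors). Ube2c (5.92) and Espl1 (5.49) lie among the upper points, Fzr1 lies on the zero line and Pttg1 just below it (-0.40, or -0.20 with library size only).

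Per kilobase of the principal transcript, the order of the 9 genes changed between the time points. In undamaged liver Pttg1 was the highest at 12.0 ± 1.38 (SD, n = 3) CPM per kilobase, followed by Fzr1 at 10.8 ± 1.415, Ube2s at 8.39 ± 0.839 and Cks2 at 6.05 ± 0.630. The libraries of Pttg1 and Fzr1 overlapped in level. Cks1b (2.43 ± 0.114) and Skp2 (1.47 ± 0.0352) came next, and Ube2c (0.507 ± 0.144), Fbxo5 (0.232 ± 0.0661) and Espl1 (0.0777 ± 0.0453) were the lowest.

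At 48 h Ube2s led at 43.5 ± 6.73 CPM per kilobase and Ube2c was next at 31.0 ± 10.8, with overlapping libraries. Cks2 (14.45 ± 1.92) stood above Fzr1 (10.7 ± 1.17), Cks1b (10.2 ± 1.27) and Pttg1 (9.11 ± 0.586), of which each neighbouring pair overlapped. Skp2 followed at 5.81 ± 0.530, Espl1 at 3.55 ± 0.512 and Fbxo5 at 1.82 ± 0.332. Pttg1 thus moved from place 1 to place 6. With the merged length of all annotated exons instead, Fzr1 led at 0 h with Pttg1 in place 3, and Cks2 led at 48 h. Ube2c then stood above Ube2s at 48 h, and lower places swapped too, with Fbxo5 above Ube2c at 0 h and Espl1 above Skp2 at 48 h, so the order depends on the transcript length used.

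**Figure D3:**
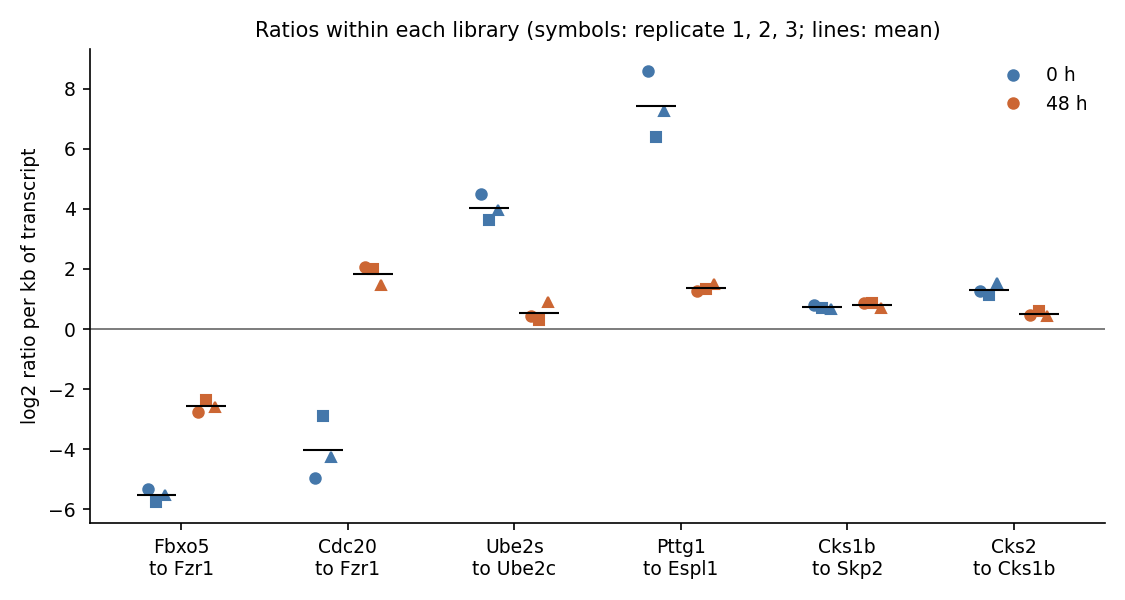
Log2 ratio of the levels of pairs of genes, per kilobase of principal transcript, within each library at 0 h (blue) and 48 h (orange); lines are means over 3 libraries. The libraries of the time points are apart for 5 pairs and overlap for Cks1b to Skp2, and Pttg1 to Espl1 shows the widest drop, from a mean of 7.42 to 1.37.

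The balance between the APC/C's activators and inhibitors was also compared within libraries. Cdc20, the mitotic activator, rose from 0.681, 2.22 and 1.02 CPM to 85.4, 80.1 and 46.35 CPM, a log2 fold change of 5.75 (adjusted p = 1.20e-06 from edgeR). It was 6.34 without 0 h replicate 2, in a range of 5.44 to 6.34 when 1 library was left out. Its level per kilobase was 0.0320, 0.134 and 0.0528 of that of Fzr1 at 0 h and 4.15, 3.95 and 2.76 times that of Fzr1 at 48 h. Cdc20 thus stood below Fzr1 in every library at 0 h and above it in every library at 48 h (two-sided exact permutation p = 0.1, 0.12 adjusted over 6 ratios). The ratio of Fbxo5 to Fzr1 per kilobase was 0.0252, 0.0187 and 0.0219 at 0 h and 0.149, 0.1945 and 0.167 at 48 h (two-sided exact permutation p = 0.1, 0.12 adjusted), so it remained below 1 throughout.

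The other genes of these pathways were taken from lists of APC/C and SCF genes. Of the 14 core subunits of the APC/C, 7 were higher at 48 h and 0 lower, beside 21.4% higher and 19.3% lower among all genes tested, with a median log2 fold change of 0.35. Cdc27 (0.97), Anapc11 (0.89) and Anapc5 (0.86) changed most, and the 7 that did not pass the test lay between -0.02 and 0.25. Of the 7 activators, E2s and checkpoint inhibitors that act on the APC/C beside the 9 genes, 6 were tested and 5 were higher (21.4% of all genes tested). They include Bub1b (5.50) and Mad2l1 (4.29), which block Cdc20 until all chromosomes are attached, while Mad2l2 (-0.06, adjusted p = 0.6755) did not pass the test.

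All 13 other APC/C substrates on the list were higher at 48 h (21.4% of all genes tested), by log2 fold changes of 0.87 to 6.52 with a median of 5.56. Cdc6, which licenses replication origins, had the largest at 6.52, followed by Aurkb, the kinase that corrects kinetochore attachment, at 6.31 and Tpx2, a spindle assembly factor, at 6.21. Securin, itself a substrate of the APC/C, lay outside that range at -0.40. Of the 14 genes of cohesin and its regulators, 8 were higher and 1 was lower (21.4% and 19.3% of all genes tested), with a median of 0.48. Cdca5 (sororin, 6.30), Esco2 (6.02) and Sgo1 (shugoshin, 4.11), which establish or protect cohesion, rose most. Cdca5 had 1, 7 and 4 counts at 0 h, and its log2 fold change was 6.95 without 0 h replicate 2, in a range of 5.885 to 6.95 when 1 library was left out. The loader gene Mau2 fell by 0.54 on the log2 scale (adjusted p = 0.00400 from edgeR). Rad21, the cohesin subunit that separase cuts, was looked up after its value was seen and had a log2 fold change of 1.59.

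Fold changes in the core of the SCF ligase were below those of Skp2 and Cks1b. Of 8 genes for its scaffold, adaptor, E2s and neddylation, 3 were higher and none was lower, with a median log2 fold change of 0.31. With 21.4% higher and 19.3% lower among all genes tested, the count of 3 is not read as particular to these genes. The 3 were Cdc34 (0.85) and Ube2m (0.67), which are E2 enzymes for ubiquitin and Nedd8, and Cand1 (0.36), an exchange factor for F-box proteins. The edgeR call of Cand1 was lost without 0 h replicate 3, 48 h replicate 1 or 48 h replicate 2 (adjusted p = 0.0687, 0.0710 and 0.0624). Its log2 fold change in those fits was 0.35, 0.31 and 0.36. Of 7 other F-box genes, 2 were higher, with Ccnf (cyclin F) at 0.83, and 2 were lower, Fbxo31 at -0.78 and Fbxl12 at -0.77. These shares are near the 21.4% and 19.3% of all genes tested and are no result about F-box genes. Exons of a gene on the other strand cover 37.1% of the exon bases of Fbxl12, and whether the authors counted by strand is not given in the sources used here.

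Of the 6 substrates of SCF with Skp2 on the list, 5 were tested, of which 4 were higher and 1 was lower (21.4% and 19.3% of all genes tested). Cdkn1b (p27) stood at 19.0, 20.1 and 20.96 CPM at 0 h and at 35.7, 32.8 and 27.8 CPM at 48 h, a log2 fold change of 0.68 (adjusted p = 0.00115 from edgeR). The p27 transcript therefore rose together with those of Skp2 and Cks1b, by a smaller factor of 1.602. Cdt1, a licensing factor, and Cdkn1a (p21) rose by 4.13 and 3.43 on the log2 scale, and Rbl2 (p130) fell by 0.63, with 20.97% of its exon bases covered from the other strand. Protein levels, through which ubiquitin ligases act, were not measured in these libraries.

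**Figure D4:**
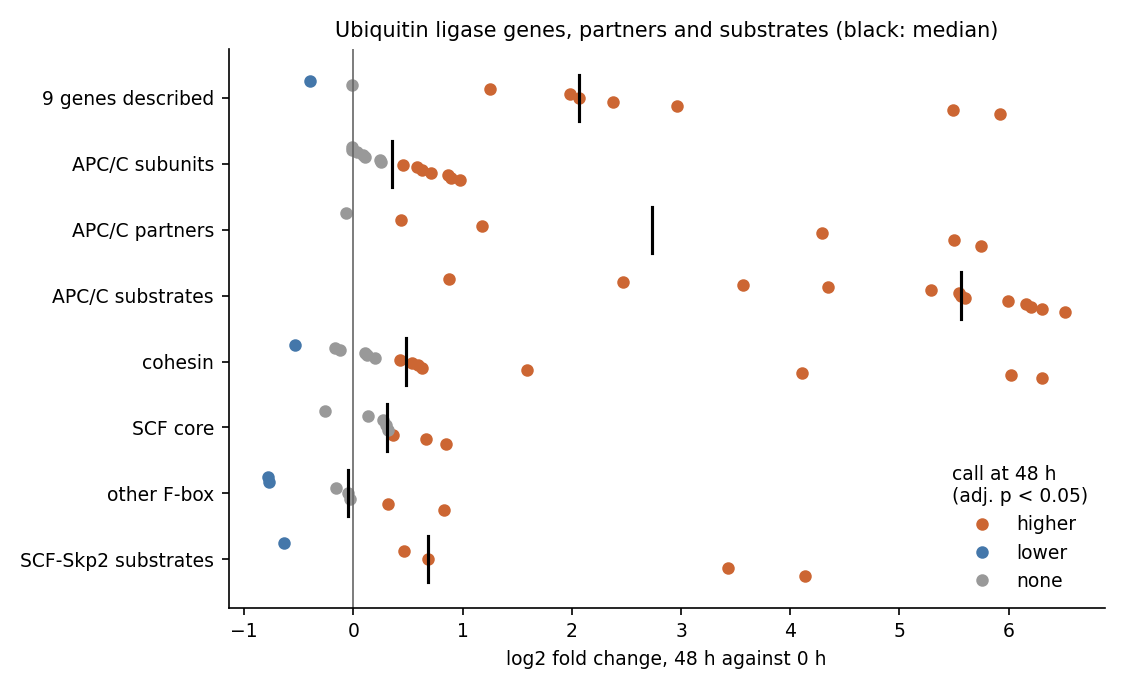
Log2 fold change at 48 h against 0 h of each gene tested in the 9 genes described and in 7 lists of related genes; colours give the call in edgeR's test and black lines the median. The 13 APC/C substrates lie between 0.87 and 6.52, their median of 5.56 lies to the right of every core subunit of the APC/C and SCF, and the blue point of the 9 genes is Pttg1 (called in 8 of 15 alternative settings, and not under library size scaling).

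Markers of other liver cells were read beside these changes. The 10 endothelial markers summed to 231.5 to 361.2 CPM at 0 h and 169.8 to 185.1 at 48 h, and all 10 were called lower (19.3% of all genes tested). The 10 Kupffer cell markers summed to 78.3 to 118 and 112 to 137 CPM, with 2 called higher (21.4% of all genes tested), Marco by 3.19 and Cd5l by 0.78 on the log2 scale, and with Clec4f not called. The 8 stellate cell markers summed to 64.2 to 105 and 56.0 to 67.0 CPM. Of these, 1 of 7 tested was called higher and 1 lower (21.4% and 19.3% of all genes tested), with log2 fold changes of -0.82 to 2.30 over the 7. The 5 cholangiocyte markers summed to 9.12 to 20.7 and 16.3 to 26.0 CPM, with 1 of 2 tested, Spp1, called higher (21.4% of all genes tested). The 7 lymphocyte markers summed to 0.204 to 0.361 and 0.119 to 0.475 CPM. The 7 neutrophil markers summed to 0.0904 to 0.409 CPM at 0 h and 0.653 to 1.06 at 48 h, without overlap and with a log2 ratio of means of 2.11, so they moved in the direction of the 7 higher genes, with Mpo at 0 in all libraries. Leaving out 1 library gave log2 ratios of 1.75 to 3.05, the highest without 0 h replicate 1. None of the lymphocyte or neutrophil markers passed the filter on low counts. The part of each of these cell types in the changes of the 9 genes was not tested.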

How the data were processed

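The authors deposited raw counts of reads per gene for 6 libraries, not normalized, in the layout of htseq-count. The submitters' processing notes name FastQC 0.11.5, Trim Galore 0.6.4, STAR 2.6, HTSeq 0.12.4 and DESeq2 and the build mm10; counting mode and strand setting are not given in the sources used here. All identifiers are those of GENCODE M21, which gave names, positions and lengths. Lines for reads on no gene (24.3% to 32.7%) or on several genes (4.27% to 5.29%) were left out, and lines for unaligned or multiply aligned reads hold 0.

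Time points were taken from the sample titles. The test was that of edgeR 4.0.16 under R 4.3.3 (TMM, glmQLFit and glmQLFTest, time as the only term), after checks on simulated data. The standard error is the log2 fold change divided by the square root of F. Ratios used counts plus 0.5 and exact permutation tests in scipy 1.17.1. Near-identical transcripts were found with blastn 2.17.0. Alternatives were DESeq2 1.42.0, limma-voom (3.58.1), other normalizations and filters, a replicate block, and leaving out each library (with 10 counts then required in 2 libraries).

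The 9 genes, the lists and the motifs were chosen with earlier results of these data known. Named beside the 9 are Cdc20, Cdkn1b and, per list, up to 3 called genes with the largest changes and any called lower; others, such as Rad21 and Mad2l2, were named after their values were seen. The 3 preparations per time point come from separate mice by the study's description. As a check for a library deposited again under another name, libraries of a time point were compared by their counts, and none were alike within counting noise (chi-square of at least 25.8 per gene, on average).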

Additional observations from a re-analysis of the deposited data

How the results depend on the processing

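The count of 7 higher genes among the 9 was the same in all 15 alternatives run, and the adjusted p of each of these 7 stayed at or below 0.00129. The call of Pttg1 did not hold as well, with 0 lower genes among the 9 under library size only (log2 fold change -0.20) and under the replicate block (log2 fold change -0.40, adjusted p = 0.0782), and 0 to 1 over the 6 fits that each left out 1 library. Its log2 fold change ranged from -0.50 to -0.20 over all alternatives. The log2 fold change of Fzr1 turned positive with library size only (0.19), without 0 h replicate 1 (0.0693) and without 48 h replicate 3 (0.0654), where leaving out 1 library gave -0.12 to 0.0693, with an adjusted p of 0.249 or more in every alternative. Over all genes, library size only gave 2110 lower and 5308 higher genes, against 3288 and 3638. TMM factors from protein-coding genes only, chosen after seeing the data, gave 3710 lower and 3337 higher genes, and Pttg1 was called lower. Among the other pathway genes, 36 to 48 were higher and 4 to 5 lower over the alternatives, against 42 and 4. The replicate block changed no call among the 9 genes other than that of Pttg1, and same-numbered libraries did not deviate together (r = 0.0335, -0.0674 and -0.138 across genes). Each of the 6 ratios kept its direction, and the paired exact permutation test cannot give a p under 0.25 with 3 pairs. Depth limits Espl1, Ube2c and Fbxo5 most, with 6 to 25 counts per library at 0 h.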

Other observations

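At 48 h the library of replicate 3 was the lowest of the 3 in 8 of the 9 genes and in 12 of the 13 other APC/C substrates, and it was the lowest in 49.4% of the 3638 genes called higher. Skp2 was the exception among the 9, with its lowest level in replicate 2. The cause of this order was not tested.

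The genes whose log2 CPM followed each of the 9 most closely over the 6 libraries were named by Pearson's r across the 13321 genes whose mean level was 1 CPM or more. Since the libraries fall into 2 time points, any gene with a step between them scores high, and r takes no account of the size of that step. For Ube2c the closest were Ect2 (r = 0.9998), Tuba1b and Cdkn2c, and for Espl1 Cenpf (r = 0.9995), Cip2a and Cdk2. Fbxo5 was followed by Hnrnpa3, Suv39h1 and Gmnn, which encodes geminin, and Ube2s by Sgo1, Ilf2 and Rtel1. Skp2 lay closest to Ly6d, Utp15 and Isyna1, Cks1b to Lcn2, Mcph1 and Saa2, and Cks2 to Faap24, Jpt1 and Dynll1. The number of genes with an r of at least 0.99 was 127 to 332 for these 7 genes, but 8 for Pttg1, led by Ethe1, Ivd and Bbc3, and 1 for Fzr1, which was Leo1.

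Annotated transcripts of other genes that match the principal transcripts of the 9 at 90% identity or more over at least 200 bases were found for Cks1b, Cks2, Fbxo5 and Ube2c. The retrogene Cks1brt, which matches Cks1b at 92.2% over 752 bases, had 0 counts in every library. AC151284.1, a processed pseudogene that matches Ube2c at 93.6% over 466 bases, had 8 to 13 counts per library at both time points, close to the 11 to 20 counts of Ube2c itself at 0 h. Glcci1 matches Fbxo5 in the opposite orientation at 90.9% over 1756 bases and had 77 to 109 counts per library, above the 10 to 17 counts of Fbxo5 at 0 h. Sharing of reads in these pairs was not tested.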
